A study of Homo sapiens with 4 samples.

Results

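Mitochondrial ribosomal proteins are the protein parts of the ribosome that works inside mitochondria. They are encoded in the nucleus, made in the cytosol and imported. The genes described here were all protein-coding genes of the deposited tables whose symbol starts with MRPL or MRPS followed by a digit, with no hyphen. This gave 78 of 51103 genes, or of 19922 protein-coding genes, of which 49 carried an MRPL and 29 an MRPS symbol. They lay on 21 chromosomes, most often chromosomes 1, 2 and 17 with 8 genes each and chromosome 11 with 7.

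The labels give the cells as AGS, a human gastric adenocarcinoma line, and polyA RNA was sequenced. The FGF2 group had 2 libraries from cells given 20 ng/mL recombinant human fibroblast growth factor 2, a secreted growth factor, and harvested at 24 h. The other 2 libraries carried the name NC, which is not spelled out, and since their treatment text also mentions adding FGF2, the treatment of the NC cells is not known here. The series title names ribosome biogenesis after FGF2, and the comparison made here asks whether transcripts of the mitochondrial ribosome differed between these groups.

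The mitochondrial ribosome has a large subunit, where peptide bonds are formed, and a small subunit, which reads the messenger RNA. Its ribosomal RNAs come from mitochondrial DNA, and it translates only the mRNAs of that genome, all for subunits of the respiratory chain and ATP synthase. Some of its proteins descend from bacterial ribosomal proteins, and others have no bacterial counterpart and were added in the mitochondrial lineage. Nuclear genes of mitochondrial translation are known targets of NRF1, of the ETS factor GABP with the coactivators of the PGC-1 family, of YY1 and of MYC.

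Total counts were 13790335 and 27598608 in the FGF2 libraries, and the NC libraries had 14073340 and 27325697. At 0 of the 78 genes did library 1 hold more counts than library 2 of its group, and over all genes this happened at 2 of 22043 for FGF2 and 2 of 22485 for NC. Library 2 therefore has the counts of a library that includes the reads of library 1, and each group was counted as 1 sample. No test between the groups was possible, and every difference below compares 2 samples without a check by separate replicates. Levels and differences come from libraries 2, and the reads of each group were also parted into library 1 and the other reads of library 2, called read sets here. Of the epithelial markers, KRT8 stood at 191 FPKM in the FGF2 and 270 FPKM in the NC sample and KRT18 at 199 and 193 FPKM. KRT19 was higher in FGF2 (47.6 against 27.3 FPKM), but CDH1 was near 0 (0.0235 and 0.118 FPKM) and EPCAM low (0.518 and 1.19 FPKM). FPKM is the read count scaled by exon length and library total. Of the fibroblast markers, COL1A2 had 0 counts in every library, and DCN, LUM, PDGFRA and COL3A1 were under 1 FPKM. VIM (100.3 against 66.1 FPKM) and COL1A1 (59.4 against 103.8 FPKM) were high in both samples. The low CDH1 and EPCAM and the high VIM and COL1A1 go against the markers set for an epithelial line, so the identity of the cells rests on the labels. The marker levels also differed between the samples, in both directions, and their part in the results below was not tested.

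Transcripts of the mitochondrial ribosome were mostly higher in the FGF2 sample, by small amounts. A gene was called higher when both FGF2 read sets lay at least 1.2-fold above both NC read sets after TMM scaling (a trimmed mean that corrects for composition), in genes whose read sets averaged 50 counts or more. Of the 73 genes with enough counts, 18 were called higher and 0 lower, while 55 met neither bound. Among all 11000 genes tested the same rule called 12.7% higher and 13.4% lower, against 24.7% higher here. At a 1.5-fold bound 0 of the 73 were higher and 0 lower, with 3.14% and 5.17% of all genes. The median log2 fold change of the 73 was 0.22, a 1.17-fold ratio, beside 0.03 over all genes tested. The middle part of the 73, between the quartiles, lay at 0.13 to 0.37, and that of all genes at -0.20 to 0.22. The range was -0.21 for MRPS36 to 0.56 for MRPS2. In all, 64 of 73 were above 0, beside 5969 of 11000 genes. In such bulk RNA, more RNA per cell and a different mix of cells cannot be told apart.

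**Figure D1:**
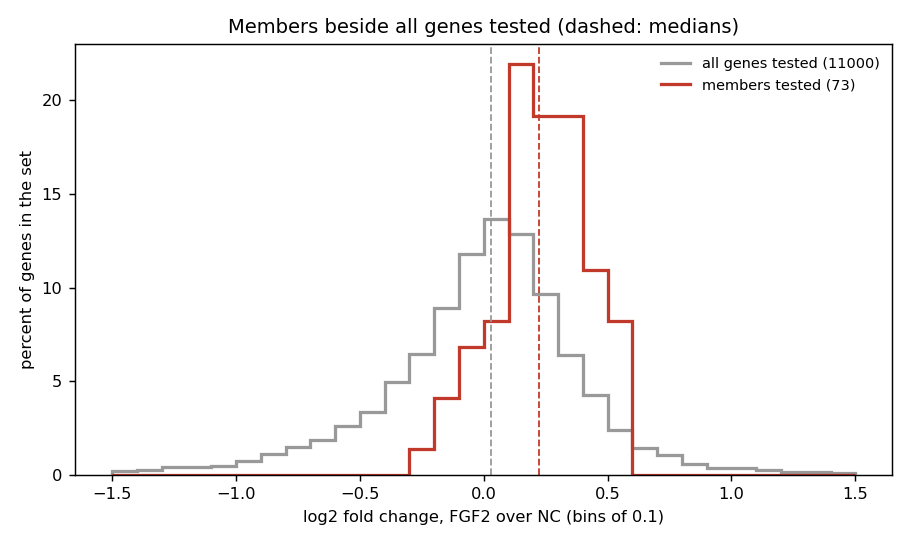
Distribution of the log2 fold change (FGF2 over NC, TMM-scaled counts of libraries 2, x axis in bins of 0.1) as percent of genes in each set (y axis), for the 73 genes of mitochondrial ribosomal proteins tested and all 11000 genes tested. The red curve is narrower, with its median (dashed) at 0.22 against 0.03 for all genes, and genes beyond 1.5 on either side are not drawn.

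The spread between the read sets of a group cannot be taken as the spread between separate cultures. Where the other reads of library 2 came from is not known here. The log2 ratio between the 2 read sets of a group had a median size over the 73 genes of 0.122 for FGF2 and 0.0858 for NC. From the reads of library 1 alone the median log2 fold change was 0.26, and from the other reads of library 2 it was 0.19. Both read sets put 58 of the 73 genes above 0 and 5 below, beside 4693 and 3910 of all 11000 genes. The 95% counting intervals (exact Clopper-Pearson) lay wholly above 0 for 51 genes and below 0 for 2, MRPS36 and MRPL34, beside 4082 and 3272 of all genes. These intervals are too narrow. The read sets of a group differed with a chi-square per gene of 4.21 for FGF2 and 2.45 for NC over the 73 genes. Counting error gives about 1. The rule called 9 genes (8.47% of all genes) when libraries were scaled by total count alone, which shifts the median of all genes to -0.06 and that of the 73 to 0.14. The calls lost under that scaling were those of MRPL15, MRPL17, MRPL19, MRPL30, MRPL32, MRPL48, MRPL50, MRPS5 and MRPS18B. With FGF2 library 2 left out the rule called 30, and 17.7% of all genes.

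**Figure D2:**
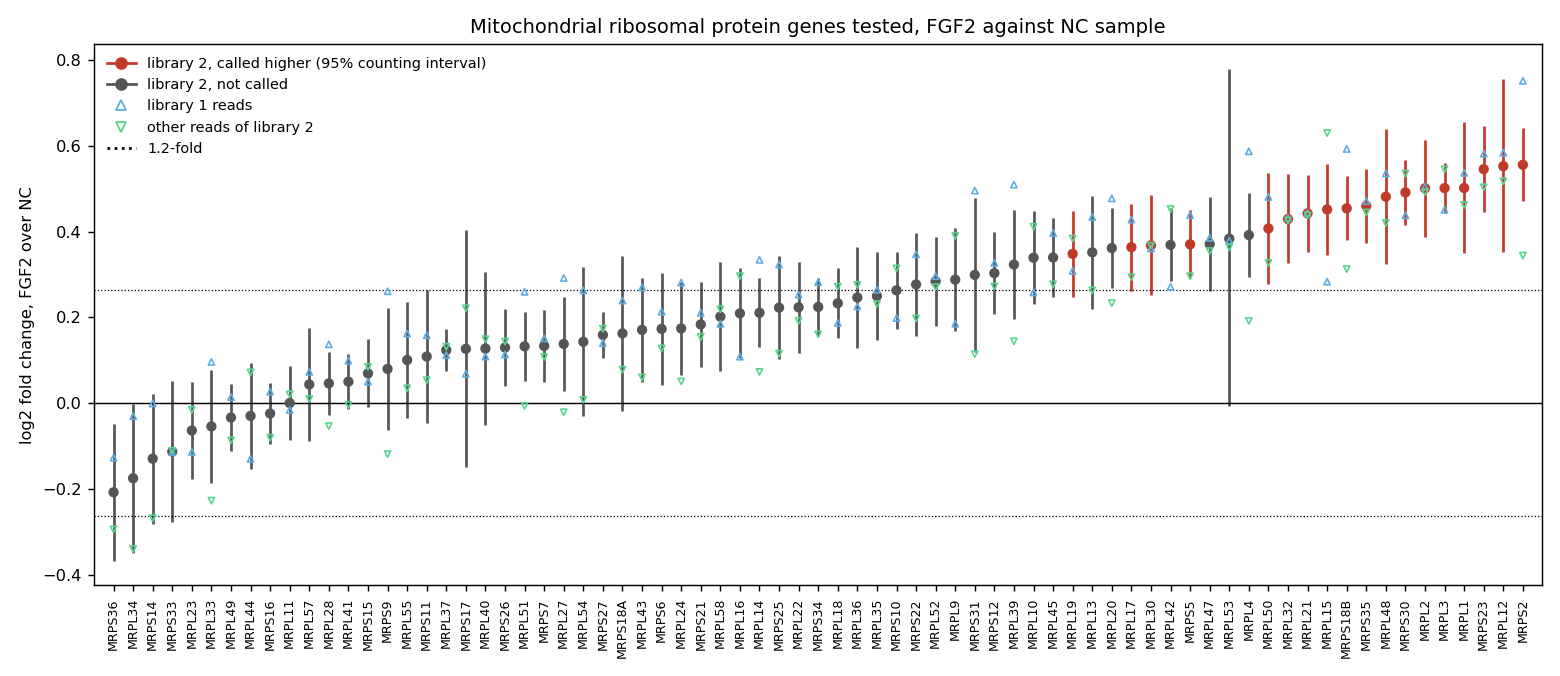
Log2 fold change (FGF2 over NC) of the 73 genes tested, sorted by value. Circles with bars are libraries 2 with their 95% counting intervals, triangles the 2 read sets, and dotted lines 1.2-fold. The 18 genes called higher (red) run from MRPL19 at 0.35 to MRPS2 at 0.56. MRPL4, MRPL53, MRPL47 and MRPL42 lie at 0.37 to 0.39 without a call, because a call needs each FGF2 read set to clear each NC read set.

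The promoters were searched for the letters of short binding sites, and binding itself was not measured. The RefSeq promoter table (GRCh38.p14, 250 bases before to 50 after the start of each gene) held 69 of the 78 genes and 15 of the 18 called higher. The entries of MRPL2, MRPL10, MRPL13, MRPL15, MRPL21, MRPL23, MRPL35, MRPS28 and MRPS36 were missing. Searched on both strands were CACGTG, an E-box bound by MYC, CCGGAAGT, an ETS and GABP site, GCATGCGC, a part of the NRF1 site, and AAGATGGC, the core of a YY1 site. The 9 windows below are those of called genes with a match, 1 window for each gene and motif, read 5′ to 3′ on the strand of the gene with the match in capitals. A match in reverse orientation appears as the reverse complement.

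MRPS30, YY1 core (chr5:44808949-44808978, plus strand): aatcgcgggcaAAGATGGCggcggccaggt

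MRPS18B, YY1 core (chr6:30617852-30617881, plus strand): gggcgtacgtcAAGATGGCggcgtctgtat

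MRPL50, YY1 core (chr9:101398577-101398606, minus strand): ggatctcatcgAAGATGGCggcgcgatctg

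MRPL32, YY1 core, reverse (chr7:42932143-42932172, plus strand): acccgcgctccGCCATCTTtacccgaagag

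MRPS18B, NRF1 (chr6:30617806-30617835, plus strand): agtttcctgaaGCATGCGCagttgcctttc

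MRPL32, NRF1, reverse (chr7:42932326-42932355, plus strand): tctgtgcctgtGCGCATGCtgaaagcaggg

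MRPL17, NRF1 (chr11:6683401-6683430, minus strand): ggctctgatgcGCATGCGCaaacacgttca

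MRPL3, ETS and GABP (chr3:131502985-131503014, minus strand): tgtaaaacgcaCCGGAAGTgggtccggcgg

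MRPS2, E-box (chr9:135499897-135499926, plus strand): cgacggccaggtCACGTGactggggagcga

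MRPL17 held the NRF1 letters at 3 places, of which 2 overlap, and 1 is shown. The YY1 core was present in 21 of the 69 promoters (30.4%), beside 3.52% of 27305 promoters in the table and 7.06% of the 8629 whose gene was tested. In 17 of the 21 genes it lay in forward orientation, and in 13 of these the ATG inside the motif was the annotated start codon, as in MRPS30, MRPS18B and MRPL50 above. In these genes the letters of the motif therefore also spell the start of the protein. The ETS and GABP letters were in 12 promoters (17.4%, beside 4.95% of all and 11.02% of tested), the E-box in 9 (13.04%, beside 8.78% and 13.01%) and the NRF1 letters in 6 (8.70%, beside 3.68% and 6.76%).

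The matches were spread over called and uncalled genes. The YY1 core was in 4 of the 15 called genes with a promoter and in 14 of the 50 that met neither bound. For the ETS and GABP letters these counts were 1 and 10, for the E-box 1 and 7, and for the NRF1 letters 3 and 2. MYC, YY1, NRF1, GABPA and GABPB1 are genes for factors that bind these letters, and none of them was called. Genes for other factors that bind the same letters were not looked at. MYC, a transcription factor of growth genes, stood at 136.2 FPKM in FGF2 and 133.2 FPKM in NC (log2 fold change 0.12). YY1 was at -0.04, NRF1 at -0.02 and the GABP subunit genes GABPA and GABPB1 at 0.23 and 0.07. Of the 9 factor genes listed, 8 had enough counts and 2 were called higher (25%, beside 12.7% of all genes). PPARGC1B, a coactivator of the PGC-1 family, had 535 and 1074 counts in the FGF2 libraries against 352 and 664 (0.77), and ESRRA, the estrogen-related receptor it works with, had 0.38. PPRC1, a coactivator related to the PGC-1 family, was at 0.34 without a call, and PPARGC1A had 7 counts in the FGF2 and 14 counts in the NC sample.

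Levels of the 78 genes spanned a wide range with most in the middle. Compared per length, the median was 16.5 FPKM in the NC and 18.7 FPKM in the FGF2 sample, with NC quartiles of 9.98 and 32.3 FPKM, and 56 genes lay between 10 and 100 FPKM in NC. MRPL41, a large subunit protein particular to mitochondria, was the highest in NC, with 119.4 and 112.7 FPKM in the FGF2 libraries and 119.1 and 115.8 FPKM in the NC libraries, so the groups overlapped. MRPS34, a small subunit protein that stabilises the 12S rRNA, was the highest in FGF2. It had 130.3 and 125.0 FPKM against 114.5 and 113.8 FPKM in NC, and was not called. Its read sets gave log2 fold changes of 0.28 and 0.16. Next in NC came MRPL37 (95.8 FPKM), MRPL14 (91.4 FPKM), MRPS26 (65.9 FPKM) and MRPL18 (61.1 FPKM). Their log2 fold changes were 0.12, 0.21, 0.13 and 0.23, and 0 of these 6 most abundant transcripts was called. Of the 37 tested genes at or above the median NC level, 7 (18.9%) were called. Of the 36 below it, 11 (30.6%) were called, beside 12.7% of all genes.

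**Figure D3:**
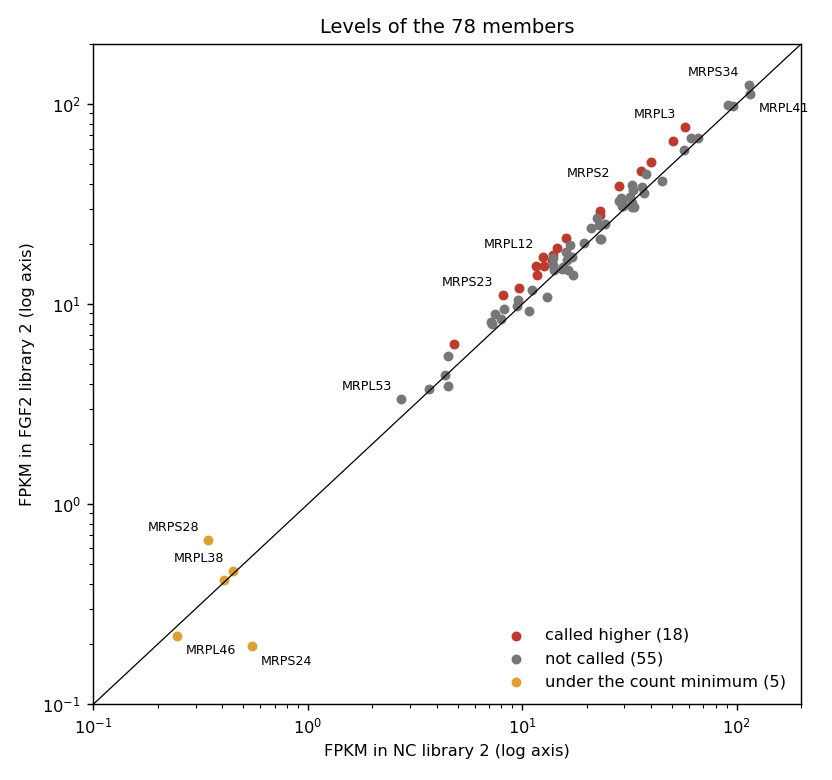
FPKM of the 78 genes in the FGF2 (y) and NC (x) sample, libraries 2, both log axes, with the line of equal level. The 18 called genes lie above the line at 4.81 FPKM (MRPL48) to 57.7 FPKM (MRPL3) in NC, the 5 genes under the count minimum lie under 1 FPKM in both samples, and the highest, MRPL41 in NC and MRPS34 in FGF2, lie near the line.

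Among the proteins of the small subunit with bacterial relatives, MRPS2 (uS2m, ENSG00000122140, chromosome 9, 135499984 to 135504673 on GRCh38) had the highest difference of the tested genes. It stood at 42.5 and 39.1 FPKM in the FGF2 libraries and 26.96 and 28.3 FPKM in the NC libraries. Its log2 fold change was 0.56 (95% counting interval 0.47 to 0.64), but library 1 gave 0.75 and the other reads 0.34. It shares 14.4% of its exon sequence with genes on the opposite strand, whose reads cannot be told apart without strand marking. MRPS18B, 1 of 3 relatives of bacterial S18 in human cells, had 66.3 and 65.2 FPKM against 46.9 and 50.6 FPKM (0.45, 0.38 to 0.53). Its difference also leaned on library 1, with 0.59 there and 0.31 in the other reads. MRPS5, a protein of the mRNA entry side, had 15.6 and 15.4 FPKM against 12.3 and 12.7 FPKM (0.37, 0.29 to 0.45). The bacterial-type group of the small subunit had 3 of 14 tested genes (21.4%) called, beside 12.7% of all genes, with a median of 0.15. The calls of MRPS18B and MRPS5 were lost with total-count scaling.

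In the group of small subunit proteins particular to mitochondria, 2 of 9 (22.2%) were called, beside 12.7% of all genes, and the median was 0.22. MRPS23 (ENSG00000181610, chromosome 17, 57834781 to 57850056) had 968 and 1957 counts in the FGF2 libraries against 705 and 1412 in the NC libraries, a log2 fold change of 0.55 (0.45 to 0.65). The read sets gave nearly the same log2 difference, 0.58 and 0.50, and no exon is shared with another gene. MRPS35 had 46.8 and 46.6 FPKM in FGF2 against 36.1 and 36.0 FPKM (0.46, 0.37 to 0.55). Its read sets gave 0.47 and 0.44. MRPS33 stood on the other side at -0.11 (-0.28 to 0.05), with 4.05 and 3.92 FPKM against 4.69 and 4.51 FPKM. That interval includes 0, and MRPS33 met no bound.

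The proteins of the large subunit with bacterial relatives held 10 of the 18 called genes among 31 tested (32.3%), with a median of 0.29. The share over all genes was 12.7%. MRPL3 (uL3m, ENSG00000114686, chromosome 3, 131462212 to 131502983), a core protein close to the peptidyl transferase centre, had 2766 and 5757 counts in the FGF2 libraries against 2206 and 4283 in the NC libraries. This is 73.9 and 76.8 FPKM against 57.7 in both NC libraries, a log2 fold change of 0.50 (0.44 to 0.56). MRPL3 was the most abundant transcript among those called. MRPL2, another core protein, had 21.1 and 21.3 FPKM against 15.9 and 16.01 FPKM (0.50, 0.39 to 0.61). MRPL2 shares 14.7% of its exon sequence with KLC4 on the opposite strand, a kinesin light chain gene with a log2 fold change of -1.15. MRPL1, the protein of the L1 stalk, through which spent tRNA leaves, had 16.3 and 15.5 FPKM against 12.03 and 11.6 FPKM (0.50, 0.35 to 0.65). In each of these 3 genes both FGF2 read sets lay above both NC read sets, as a call requires.

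The stalk that recruits translation factors is built on MRPL11 and MRPL10 with copies of MRPL12, and the transcripts of these 3 genes differed among themselves. MRPL12, which also binds the mitochondrial RNA polymerase, had 260 and 489 counts in FGF2 against 189 and 351 in NC, a log2 fold change of 0.55 (0.35 to 0.76), and was called. MRPL10 was at 0.34 (0.23 to 0.45) without a call. MRPL11 was at 0.00 (-0.09 to 0.09), with 31.8 and 30.6 FPKM in FGF2 and 34.4 and 32.5 FPKM in NC. The intervals of MRPL12 and MRPL11 do not overlap, but counting intervals are too narrow here. MRPL12 also shares 96.0% of its coding sequence with AC139530.2 on the same strand, so its level is uncertain.

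The remaining called genes of this bacterial-type group were MRPL15 (0.45), MRPL21 (0.44), MRPL32 (0.43), MRPL30 (0.37), MRPL17 (0.36) and MRPL19 (0.35). MRPL32, whose maturation needs the m-AAA protease in mitochondria, had 18.3 and 17.7 FPKM in the FGF2 libraries against 14.5 and 13.97 FPKM, and both read sets gave 0.43. MRPL21 likewise had 0.44 from each read set, with 29.5 and 29.3 FPKM against 23.2 and 22.97 FPKM. MRPL15 was less even, since library 1 gave 0.28 and the other reads 0.63. The read sets thus ranged from even to unlike for genes with nearly equal fold changes.

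At the exit of the peptide tunnel, where new chains meet the inner membrane, 1 of 6 tested genes (16.7%) was called. The share over all genes was 12.7%. The called gene was MRPL17, with 27.9 FPKM in both FGF2 libraries against 22.1 and 23.1 FPKM in NC. That call was lost with total-count scaling. The 6 had a median of 0.28. MRPL45, which ties the ribosome to the membrane, was at 0.34 (0.25 to 0.43) and MRPL23, another exit protein, at -0.06 (-0.18 to 0.05). In the central protuberance the mitochondrial ribosome holds a tRNA in place of the bacterial 5S rRNA. Here too 1 of 6 tested genes (16.7%) was called, with a median of 0.17. This was MRPL48, with 411 and 765 counts against 309 and 577 (0.48, 0.32 to 0.64), a call also lost with total-count scaling.

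Large subunit proteins particular to mitochondria had 3 of 18 tested genes (16.7%) called, beside 12.7% of all genes, and a median of 0.19. Besides MRPL48 these were MRPS30 and MRPL50. MRPS30 (ENSG00000112996, chromosome 5, 44808925 to 44820428) is named for the small subunit, but the structure places it in the large one. It had 1552 and 3281 counts in FGF2 against 1249 and 2458 in NC, 18.1 and 19.2 FPKM against 14.3 and 14.5 FPKM (0.49, 0.42 to 0.57). MRPL50 had 12.4 and 12.1 FPKM against 9.51 and 9.70 FPKM (0.41, 0.28 to 0.54). MRPL44, which has an RNase III-like fold, was at -0.03 (-0.15 to 0.09), and MRPL49 was at -0.03 (-0.11 to 0.04).

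Sorted by their place in the structure, 13 of 49 tested large subunit genes (26.5%, median 0.25) were called. For the small subunit it was 5 of 23 (21.7%, median 0.18). By descent, 13 of 45 genes with bacterial relatives (28.9%, median 0.25) were called. For those particular to mitochondria it was 5 of 27 (18.5%, median 0.22), beside 12.7% of all genes. These classes were not tested against each other, and their quartiles overlapped. Those of the large subunit were 0.13 and 0.37 and those of the small subunit 0.12 and 0.30. The summed counts of all 78 genes made up 4831 and 4781 CPM, the share of the library total, in the FGF2 libraries and 4292 and 4311 CPM in the NC libraries. The log2 ratio of these sums in libraries 2 was 0.24 after TMM scaling and 0.15 on the CPM scale. After TMM scaling the read sets gave 0.27 and 0.21.

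At the low end of the tested genes, 0 was called lower. MRPS36 had 304 and 592 counts in FGF2 against 362 and 720 in NC, 14.4 and 14.02 FPKM against 16.8 and 17.2 FPKM, and its log2 ratio was -0.21 (-0.37 to -0.05). Its read sets gave -0.13 and -0.29. This protein is now known as KGD4, a subunit of the 2-oxoglutarate dehydrogenase complex, and has no place in the structure of the human mitochondrial ribosome, so the gene with the lowest tested value is a ribosomal protein by symbol only. MRPL34 followed at -0.17 (-0.35 to -0.00), MRPS14, a protein of the small subunit head, at -0.13 (-0.28 to 0.02) and MRPL33 at -0.05 (-0.19 to 0.08). MRPL34 shares 13.2% of its exon sequence with ABHD8 on the opposite strand, at -0.93. MRPS14 shares 13.5% with CACYBP, at 0.44.

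Several of these genes overlap another gene of translation or mitochondria on the opposite strand, and the values of 3 such pairs, chosen after they were seen, are given side by side. MRPL49 overlaps FAU, which encodes cytosolic ribosomal protein S30 and was at 0.27 beside -0.03 for MRPL49. MRPL43 overlaps TWNK, the helicase of mitochondrial DNA, at 0.39 beside 0.17. MRPS12, at 0.30, overlaps SARS2, the mitochondrial seryl-tRNA synthetase gene, which had 10 counts in the FGF2 and 13 counts in the NC sample. With at least 10% of exon sequence shared with any gene, 4 of 20 tested genes were called (20%, median 0.17). With less it was 14 of 53 (26.4%, median 0.25), beside 13.1% of all tested genes that share as little. The share over all genes was 12.7%.

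All 78 genes passed edgeR's filter on low counts, but 5 fell under the count minimum: MRPS28, MRPL38, MRPS18C, MRPL46 and MRPS24. They stood under 1 FPKM in every library, although each is a standard part of the mitochondrial ribosome. MRPS24 (uS3m) had 9 and 14 counts in FGF2 against 28 and 39 in NC, a log2 fold change of -1.37 (-2.40 to -0.49). MRPS28 had 16 and 33 counts against 11 and 17 (1.01, 0.15 to 1.97), MRPL46 27 and 39 against 29 and 43, and MRPS18C 27 and 56 against 23 and 54. MRPL38 had 13 and 47 counts against 21 and 45, and library 1 gave -0.55 where the other reads gave 0.51. Such counts allow no statement on direction for MRPL38, MRPL46 and MRPS18C, whose intervals include 0.

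The low genes share a feature of the annotation. In GENCODE v29, the release whose exon lengths match the deposited FPKM values at all 78 genes, 4 of these 5 share at least 50% of their coding sequence with the exons of another gene on the same strand. MRPS24 shares 92.2% with the readthrough gene URGCP-MRPS24, MRPL38 94.1% with AC087289.3, MRPL46 64.0% with AC013489.1 and MRPS28 53.0% with AC036214.3. URGCP-MRPS24, AC013489.1 and AC036214.3 had 0 counts in every library. MRPS18C shares 45.1% with ABRAXAS1 on the opposite strand. Another 4 genes share as much without being under the minimum: MRPS17 and MRPL53 share 100%, MRPL12 96.0% and MRPL30 95.3%. The 8 genes that share at least 50% on the same strand had a median NC level of 1.63 FPKM, and the other 70 had 20.3 FPKM. No source used here says how reads on exons of several genes were counted, and the part of this in these levels was not tested. The levels of these 8 genes, the called MRPL12 and MRPL30 included, are therefore uncertain, while both samples share the same annotation.

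**Figure D4:**
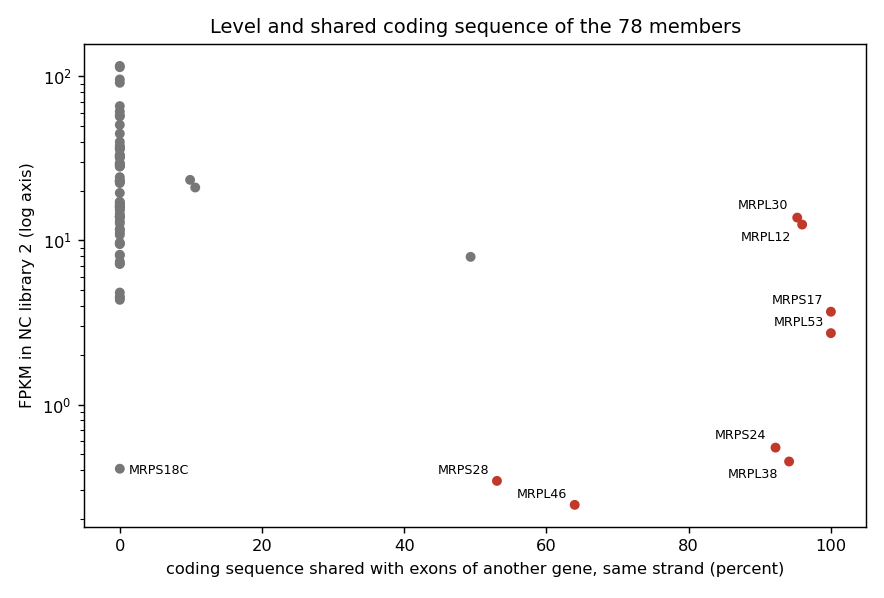
FPKM in the NC sample (library 2, y, log axis) against the percent of coding sequence that lies in exons of another gene on the same strand (x), for the 78 genes. The 8 genes at or beyond 50% (red) run from 0.245 FPKM (MRPL46) to 13.8 FPKM (MRPL30), and of the other genes MRPS18C lies under 1 FPKM.

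Pseudogene copies of these genes can share their sequence and thus their reads. The tables held 75 pseudogenes of 34 of the 78 genes, with 151 counts in the FGF2 and 135 counts in the NC sample in all. Of these, MRPL45P2 held 123 and 100 counts. The genes themselves had 131939 and 117809 counts. How reads that match both a gene and its pseudogene were counted is not given, so these counts cannot show how many reads are shared.

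Other genes of the same pathway were taken from lists by role, and their counts of calls are to be read beside the 12.7% of all genes called higher. Of 5 mitochondrial ribosomal proteins with other symbols, DAP3 (mS29), a GTP-binding protein of the small subunit head, was called higher, with 2338 and 4548 counts in FGF2 against 1970 and 3605 in NC (0.41, 0.35 to 0.47). AURKAIP1 (mS38) was at 0.21, GADD45GIP1 at 0.10, PTCD3 (mS39) at 0.05 and CHCHD1 (mS37) at 0.02, which gives a median of 0.10. Of the assembly factors, 4 of 27 tested (14.8%) were called higher and 0 lower, with a median of 0.14. TFB1M, which methylates the small subunit rRNA, had 241 and 518 counts against 150 and 319 (0.77, 0.57 to 0.98), and MRM3, which methylates the large subunit rRNA, was at 0.59. GTPBP10 followed at 0.43 without a call, and the other called factors were RPUSD4 (0.38) and FASTKD2 (0.30). YBEY, an endonuclease of the small subunit, was at -0.58 (-0.87 to -0.29) and was not called, and NGRN and RPUSD3 were both at -0.15.

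Mitochondrial translation factors had 4 of 17 (23.5%) called higher, 0 lower and a median of 0.21. LRPPRC, which stabilises mitochondrial mRNAs, stood at 59.3 FPKM in the FGF2 and 45.1 FPKM in the NC sample (0.48), and its partner SLIRP at 29.2 and 21.96 FPKM (0.50), though SLIRP was not called. The called factors were LRPPRC, the elongation factor genes TUFM (0.32) and GFM1 (0.36), and GUF1 (0.44). The lowest were C12orf65 (-0.13), C6orf203 (-0.12) and GFM2 (-0.07). The list of mitochondrial aminoacyl-tRNA synthetases, which charge tRNAs with amino acids, also held QRSL1, GATB and GATC of the glutamyl-tRNA(Gln) amidotransferase. Of its 19 genes tested, 2 (10.5%) were called higher and 0 lower, with a median of 0.13. MARS2, for methionine, had 631 and 1281 counts against 362 and 699 (0.95, 0.81 to 1.08), and YARS2, for tyrosine, was at 0.46. QRSL1 was at 0.44 without a call, and the lowest were RARS2 (-0.16), FARS2 (-0.09) and HARS2 (-0.08).

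Of 10 genes that transcribe and maintain mitochondrial DNA, all lay above 0, and 2 were called higher, TFAM (0.46), which packs the DNA and starts its transcription, and TWNK (0.39). The list had a median of 0.36, with TFB2M at 0.53 and the RNA polymerase gene POLRMT at 0.40, both uncalled, and TEFM (0.04), POLG (0.13) and MGME1 (0.18) the lowest. The 13 mRNAs encoded by mitochondrial DNA, the messages this ribosome translates, had 0 of 12 tested called in either direction. Their median was 0.06, from MT-CO1 (-0.14), MT-CYB (-0.10) and MT-ND5 (-0.09) to MT-ND4L (0.18), MT-ND2 (0.28) and MT-ND3 (0.39), and their summed counts had a log2 ratio of 0.02. The mitochondrial rRNAs were not analysed here. Cytosolic ribosomal proteins had 9 of 83 tested (10.8%) called higher and 1 lower, RPS27L, with a median of 0.26, for which library 1 gave 0.31 and the other reads 0.15. Of these 83 genes, 81 were above 0, and both read sets put 77 above 0 and 2 below.

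**Figure D5:**
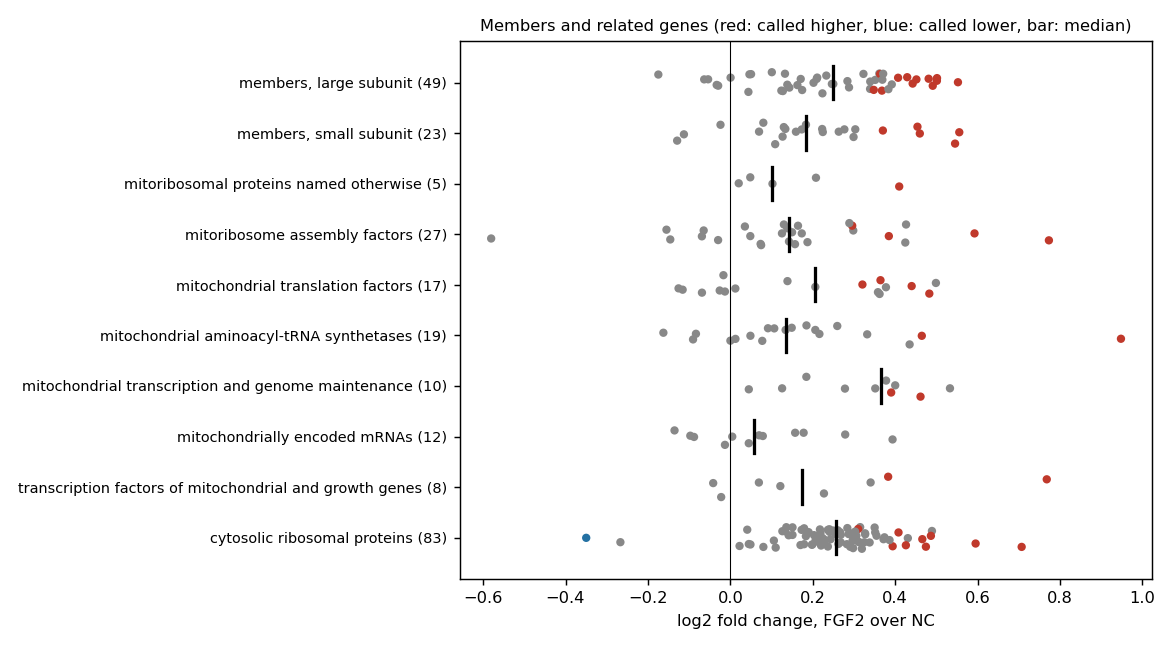
Log2 fold change (FGF2 over NC, libraries 2, x axis) of each tested gene by list (y axis, number tested in brackets), with the median as a bar, genes called higher in red and lower in blue, and points moved vertically for display. The medians run from 0.06 for the mitochondrially encoded mRNAs to 0.36 for mitochondrial transcription and genome maintenance, with 0.25 and 0.18 for the large and small subunit genes.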

How the data were processed

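Each library came with the authors' deposited raw read counts per gene and FPKM values (corrected for the exon length of a gene and for depth). HISAT2, HTSeq 0.13.5 and GRCh38 are named in the submitters' processing notes. The annotation release is not given there; the exon lengths implied by the FPKM values matched GENCODE v29 at 99.5% of 11923 genes with over 20 counts. Genes kept by edgeR 4.0.16 filterByExpr (15030) were scaled by TMM (R 4.3.3), and 0.5 was added to each count for ratios of libraries 2. Intervals came from SciPy 1.17.1, with levels, calls and classes computed in Python 3.11.15 with pandas 2.3.3, and figures drawn with matplotlib 3.10.9. The script for the calls was run on simulated counts as a check of its code, which says nothing of the calls made here. Because of the nested libraries no test across genes was run. Alternatives were total-count and DESeq2 1.42.0 scaling, other bounds and filters, and leaving out each library. Genes named singly were those called, the 8 highest and 8 lowest fold changes, the 6 highest and 6 lowest levels, all genes of lists under 10, and the 3 highest and 3 lowest tested genes of longer lists (cytosolic ribosomal proteins given by counts only, apart from the gene called lower); others named were chosen after their values were seen. The genes, lists and classes were chosen with earlier results of these data known. Structural classes follow the known human mitochondrial ribosome.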

Additional observations from a re-analysis of the deposited data

How the results depend on the processing

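The count of genes called higher was 18 of 73 tested (12.7% of all genes called). It was 9 with scaling by total count alone (8.47% of all genes called), 33 at a 1.1-fold bound (22.4%) and 0 at a 1.5-fold bound (3.14%). Leaving out each library in turn gave 24 to 30 genes (16.4% to 17.7% of all genes called), and the 30 came without FGF2 library 2. A setting with fewer read sets asks for fewer comparisons per gene. All 18 genes were among the 19 called with DESeq2 size factors. They were also called in each leave-one-out setting and at 1.1-fold. Those settings only loosen the rule, so keeping the 18 there is no separate check. With total-count scaling MRPL15, MRPL17, MRPL19, MRPL30, MRPL32, MRPL48, MRPL50, MRPS5 and MRPS18B were lost. The count of genes called lower was 0 in all settings run, beside 5.17% (1.5-fold bound) to 20.0% (1.1-fold bound) of all genes. The median log2 fold change ran from 0.13 with log2(FPKM + 1) to 0.28 without FGF2 library 2. Of 38 named genes, 13 moved outside the counting interval of their main value with total-count scaling and 0 with DESeq2 size factors. Counting intervals are too narrow here, and moves were not judged against the spread between read sets. No paired analysis was possible because the libraries of a group are nested, each group was counted as 1 sample and the results come from no test. Depth limits the 5 genes with few counts, of which MRPL38, MRPL46 and MRPS18C have intervals that include 0. The cause of the dependence on scaling was not tested.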
